A study of Mus musculus with 4 samples.

Results

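The transcriptome of the mouse embryonic gonad at embryonic stage E14.5 was compared with that at E11.5, gene by gene, from 1 RNA library at each time point. Of the 40999 features listed for each library, the 19389 genes with at least 10 counts in either library were kept, and every one of them enters the comparison. The 2 libraries were also those in which ribosomal RNA took the largest share of the counts in this series of 4, so the small-RNA results are given beside the same values in the libraries from E12.5 and E13.5.

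The tissue came from untreated wild-type C57BL/6J embryos, and each library was made from a pool of at least 6 male and at least 6 female gonads, taken from 2 litters. XX and XY tissue was pooled, so that no change could be assigned to ovary or testis. At E11.5 the whole genital ridge with the attached mesonephros was taken, whereas the mesonephros had been removed from E12.5 onwards, and the effects of dissection and of developmental time cannot be told apart. There was 1 library a side and no replicate, so no test between the time points could be made. In a bulk sample, fewer cells of a type and less RNA per cell cannot be told apart either.

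Between these time points the bipotential gonad becomes a testis or an ovary. In XY gonads the supporting cells turn on Sry and then Sox9, become Sertoli cells and secrete anti-Müllerian hormone, and fetal Leydig cells begin to make androgens. In XX gonads the supporting cells become pregranulosa cells, and the germ cells respond to retinoic acid with Stra8 and enter meiosis, while XY germ cells stop dividing and build the piRNA pathway that silences transposons. The mesonephros is the transient embryonic kidney that lies against the gonad and carries the Wolffian duct.

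The E11.5 library held 31266481 counts and the E14.5 library 31526303, so the sequencing depth differed little. Nuclear ribosomal RNA took 9.06% of the E11.5 counts and 40.7% of the E14.5 counts, against 1.31% at E12.5 and 1.03% at E13.5. The share left for protein-coding genes was 72.2% at E11.5 and 43% at E14.5. Fold changes were therefore scaled by the trimmed mean of M-values (TMM), a normalisation that sets the bulk of the genes equal, and the median log2 fold change over the kept genes was then -0.0016. All log2 fold changes below are E14.5 over E11.5 on this scale, followed in parentheses by the 95% exact binomial interval, which covers counting error and not the spread between animals. A gene was called when its level differed at least 2-fold and this interval excluded 0. Kept genes with fewer than 10 counts at E11.5 passed the filter through E14.5 alone and could be called higher but not lower. For kept genes with fewer than 10 counts at E14.5 the reverse held. Where a library held 0 counts, 3 counts were put in its place. The fold, given below as "at least", is then a lower bound on the ratio of the scaled counts and not on its interval. For Stra8 this fold is 7.38 on the log2 scale, and its interval starts at 7.07.

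By this rule 2277 genes, 11.7% of those kept, were called higher at E14.5, and 1378 genes, 7.11%, were called lower. Scaled by total counts, which sets the median gene at -0.886, the same genes gave 1029 higher and 7496 lower calls, and the deposited TPM values set it at -1.21. A rise or a fall below is thus one against the median gene. At least 4-fold differences were seen for 1032 of the higher and 548 of the lower genes, and at least 16-fold differences for 256 and 82. Protein-coding genes made up 1839 of the higher and 1067 of the lower calls, and long noncoding RNAs 196 and 150. The gonad's own transcription factors were well detected at both time points, with 10724 counts in the E11.5 library against 3371 in the E14.5 one for Wt1 and 4026 counts in the E11.5 library against 5129 in the E14.5 one for Gata4, and so were the germ cell genes described below.

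**Figure D1:**
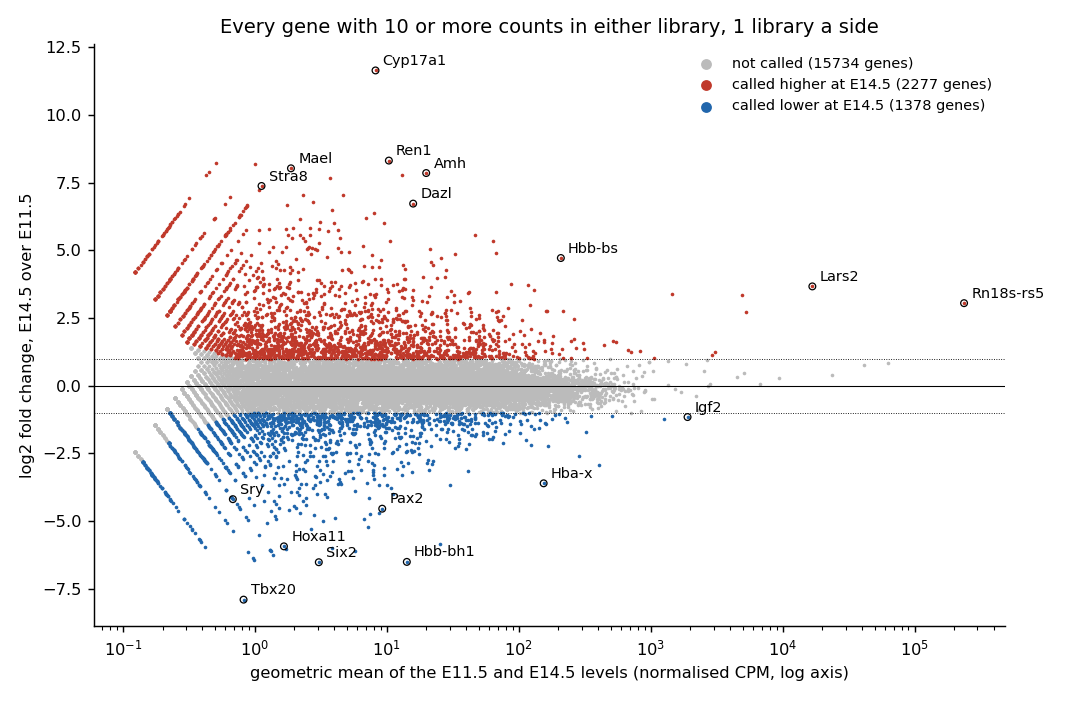
Log2 fold change of each of the 19389 kept genes, E14.5 over E11.5, against its geometric mean level in the 2 libraries in normalised CPM (counts over the effective library size, log axis), with 3 counts in place of 0. Red points are the 2277 genes called higher at E14.5, blue points the 1378 called lower, dotted lines mark 2-fold, and Cyp17a1 at 11.64 and Tbx20 at -7.90 lie at the ends of the range.

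Among called genes that reached 100 counts in one or both libraries, the 15 largest rises were Cyp17a1, Ren1, Tex101, Casq2, Mael, AI481877, Amh, Hsd3b1, Dmrtc2, Defb19, Stra8, Insl3, Mybpc3, Ptgds and Ankrd31. The order depends in part on the value put in for 0, since counts of 1 and 2 were left as they stood. Tex101, from 1 to 165 counts, thus ranked above Stra8, from 0 to 272. Ren1, which encodes renin, had 20 counts in the E11.5 library against 3474 in the E14.5 one, a log2 fold change of 8.31 (7.68 to 9.03). Casq2, a calcium-storage protein of the sarcoplasmic reticulum, went from 2 to 320 counts and Mybpc3, a myosin-binding protein best known from the heart, from 7 to 504. Dmrtc2, a DM-domain gene of the same family as Dmrt1, had 1 count in the E11.5 library against 119 in the E14.5 one, and with so few counts at E11.5 its interval was wide, 5.26 to 13.08. AI481877 had the same low start, with 1 count in the E11.5 library against 130 in the E14.5 one, 7.90 (5.39 to 13.21). In normalised CPM, counts divided by the effective library size, Ren1 stood at 0.584, 35.5, 109 and 184 in the 4 libraries in order of age.

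The 15 largest falls by the same rule were Tbx20, Six2, Hbb-bh1, Dbh, Isl1, Sim1, Hand1, Foxd1, Cldn8, LOC102640971, Mab21l2, Tgm3, Tbx18, Nkx2-3 and Hoxa11. Tbx20, a T-box transcription factor, went from 436 to 1 counts, a log2 fold change of -7.90 (-13.20 to -5.41). Foxd1, a forkhead factor of the kidney stroma, went from 1623 to 13 counts and fell by 6.09 on the log2 scale. Tbx18, a T-box gene of the urogenital mesenchyme, went from 1046 to 9 and Tgm3, a transglutaminase, from 479 to 4. No read of Cldn8, Mab21l2 or the long noncoding RNA LOC102640971 was counted at E14.5, against 374, 363 and 368 counts at E11.5, so that they were at least 68.1-fold, 66.1-fold and 67-fold lower. At E12.5, 14 of the 15 had at most 74 counts, and Hbb-bh1 had 968.

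The gene with the largest rise, Cyp17a1, belongs to the androgen pathway. Of 13 kept genes of Leydig cells and steroidogenesis, 12 were called higher and 0 lower, with a median log2 fold change of 4.73. Among all kept genes 11.7% were called higher. Cyp17a1, Insl3, Cyp11b1 and Cyp21a1, with fewer than 10 counts at E11.5, could not have been called lower. Cyp17a1, the 17α-hydroxylase and 17,20-lyase that commits steroids to androgens (chr19:46667165-46673000, mm10), had 5 counts in the E11.5 library against 8720 in the E14.5 one, a log2 fold change of 11.64 (10.42 to 13.26). Its normalised CPM in the 4 libraries in order of age were 0.146, 45.9, 265 and 463, so that most of the rise lay between E11.5 and E13.5. Hsd3b1, the 3β-hydroxysteroid dehydrogenase, went from 30 to 3636 counts, 7.79 (7.28 to 8.36). Cyp11a1, which cleaves the cholesterol side chain and starts the pathway, went from 233 to 6026, 5.57 (5.38 to 5.76).

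Among the list's other members, Star, which carries cholesterol into mitochondria, went from 171 to 2473 counts and the lipoprotein receptor gene Scarb1 from 926 to 3432, log2 fold changes of 4.73 (4.50 to 4.96) and 2.76 (2.66 to 2.87). The electron donors of the mitochondrial P450 enzymes, Fdx1 and Fdxr, rose less, by 2.09 and 2.68 on the log2 scale. Lhcgr, the luteinising hormone receptor gene, went from 17 to 603 counts, and Insl3, the Leydig cell hormone of testis descent, from 0 to 247, at least 151-fold. Cyp11b1 and Cyp21a1, which are known from the adrenal cortex, started from 5 and 8 counts and reached 147 and 65. Mc2r, the receptor for adrenocorticotropic hormone, was the kept member nearest to a fall, at -0.47 (-0.94 to -0.02).

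In the supporting cell lineage the genes of Sertoli cell function rose while the genes at the head of the pathway did not. Of 20 kept Sertoli cell genes 16 were called higher and 1 lower, with a median of 3.03. Among all kept genes the shares were 11.7% and 7.11%. Amh, the anti-Müllerian hormone gene (chr10:80805018-80807679), had 45 counts in the E11.5 library against 5683 in the E14.5 one, a log2 fold change of 7.85 (7.43 to 8.31), and its normalised CPM were 1.31, 284, 260.2 and 302. The prostaglandin D synthase gene Ptgds went from 14 to 998 counts and the defensin gene Defb19 from 9 to 996. Dhh, the hedgehog ligand that Sertoli cells send to Leydig cells, went from 63 to 852 counts, 4.63 (4.26 to 5.02), and Hsd17b3, which completes testosterone in the fetal testis, from 23 to 548, 5.45 (4.85 to 6.12).

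Sry, the sex-determining gene of the Y chromosome, was the list's called fall, with 100, 19, 1 and 0 counts in the 4 libraries in order of age, and it was at least 18.2-fold lower at E14.5 than at E11.5. Sox9, its direct target, stood at 80.7, 137, 90.6 and 79.1 normalised CPM, and its log2 fold change between the end points was -0.02 (-0.11 to 0.07). Fgf9, the growth factor that maintains Sox9, was at -0.65 (-0.99 to -0.32). The transcription factor genes Dmrt1 and Sox8 were called higher at 1.30 and 2.40.

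Pregranulosa cell genes moved less as a group. Of 13 kept, 5 were called higher and 1 lower, with a median of 0.53 that turned negative when scaled by total counts. Among all kept genes 11.7% were called higher and 7.11% lower. Foxl2, the forkhead factor that defines granulosa cells, went from 191 to 826 counts, 2.99 (2.76 to 3.22), and the activin antagonist Fst from 433 to 814, 1.78 (1.61 to 1.96). The iroquois genes Irx3 and Irx5 and the R-spondin receptor gene Lgr5 were the other called rises, at 1.94, 1.25 and 1.88. The ovary-determining ligands Wnt4 and Rspo1 were at -0.23 (-0.33 to -0.12) and -0.15 (-0.33 to 0.02), and Lef1, a transcription factor of the same pathway, fell by 1.05.

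Most transcription factors that build the gonad before its sex is set were not called. Of 14, 3 were called higher, 1 lower and 10 in neither direction, with a median of -0.28, against 11.7% higher and 7.11% lower of all kept genes. The members lay between -1.03 and 1.53, and Cbx2 and Lhx9 were at -0.97 (-1.10 to -0.85) and 0.70 (0.63 to 0.77). Nr5a1, the master regulator of steroidogenic tissue, went from 2136 to 3366 counts, 1.53 (1.45 to 1.61), and Gata4 from 4026 to 5129, 1.22 (1.16 to 1.28). Osr1, a factor of the intermediate mesoderm from which gonad and kidney arise, fell by 1.03, and Wt1 was at -0.80 (-0.85 to -0.74), short of the 2-fold rule.

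**Figure D2:**
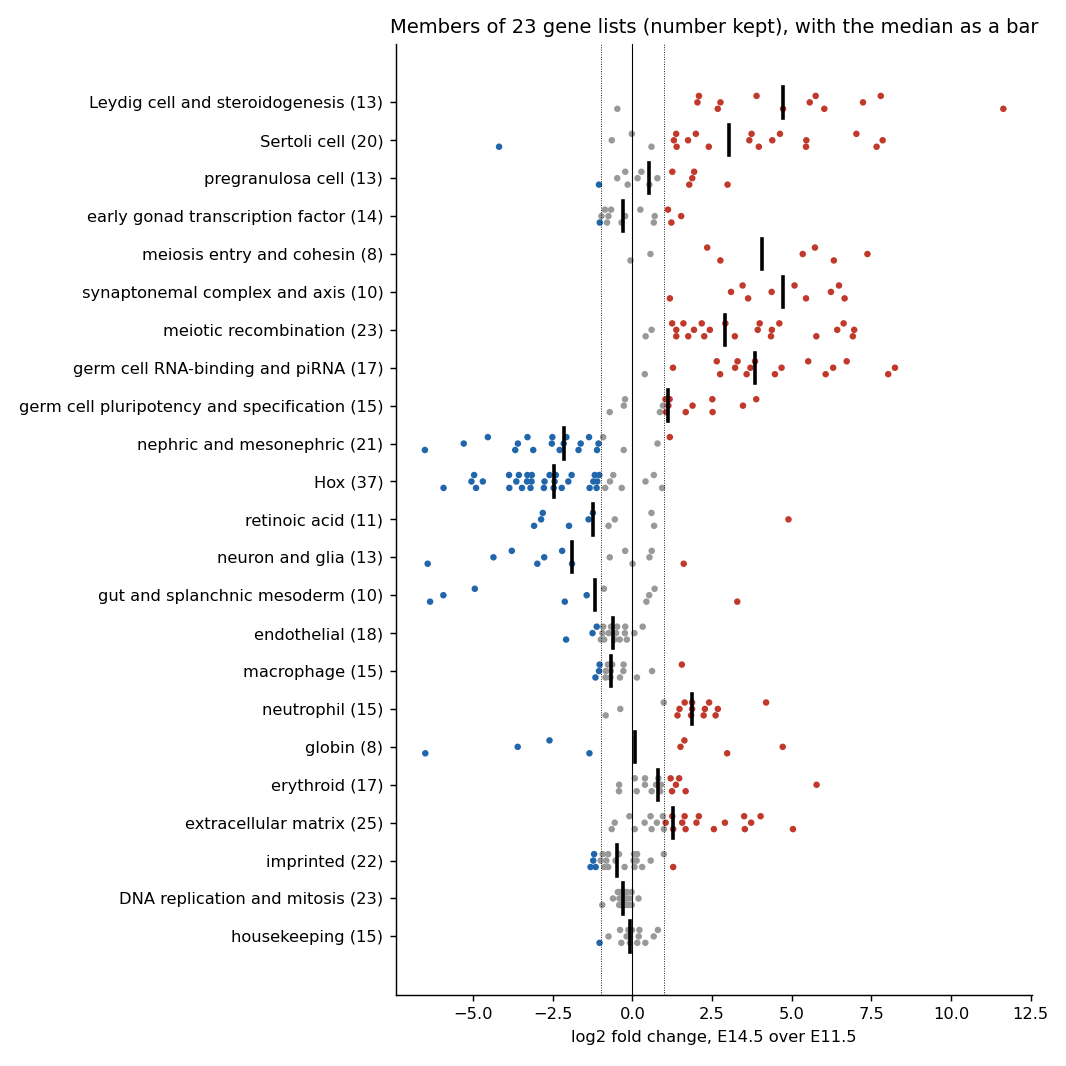
Log2 fold change, E14.5 over E11.5, of the kept members of 23 gene lists, with the number kept after each name, red for genes called higher, blue for genes called lower and grey for the rest. Black bars are medians, which run from -2.47 for the Hox genes to 4.73 for the synaptonemal complex, and dotted lines mark 2-fold.

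Genes of meiotic prophase rose together. All 10 kept genes of the synaptonemal complex and chromosome axis were called higher, with a median of 4.73. Of 23 genes of meiotic recombination 21 were called higher, with a median of 2.92, and of 8 genes of meiotic entry and meiotic cohesin 6, with a median of 4.05. None of the members of these 3 lists was called lower. Members with fewer than 10 counts at E11.5, among them Stra8, Rad21l, Sycp3, Tex12, Syce3, Spo11, Mei1 and Meiob, passed the filter only at E14.5. Such members could not have been called lower. Over all kept genes 11.7% were called higher.

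Entry into meiosis is driven by Stra8, which had 0, 3, 430 and 272 counts in the 4 libraries in order of age and was at least 166-fold higher at E14.5 than at E11.5. Its partner Meiosin, listed as Gm4969, went from 170 to 472 counts, 2.35 (2.09 to 2.61). Meioc, listed as Gm1564, which stabilises the meiotic transcript programme, went from 17 to 492, 5.73 (5.03 to 6.52). The cohesin genes separated. Smc1b went from 57 to 1265 counts, 5.34 (4.96 to 5.75), and Rad21l from 3 to 131, 6.32 (4.74 to 8.62). Stag3 had 2863, 1393, 2581 and 10590 counts in order of age, 2.76 (2.70 to 2.82), and most of its rise lay after E13.5. Rec8 was at 0.56 (0.36 to 0.76) and did not reach the 2-fold rule.

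Sycp3 and Sycp2, lateral elements of the synaptonemal complex, went from 6 to 331 and from 25 to 464 counts, log2 fold changes of 6.66 (5.52 to 8.12) and 5.09 (4.51 to 5.73). Sycp1, the transverse filament, went from 14 to 684 counts, 6.48 (5.73 to 7.36), and the axis protein gene Hormad1 from 12 to 286, 5.45 (4.62 to 6.42). Tex12 of the central element had 0 counts in the E11.5 library against 123 in the E14.5 one and was at least 75.1-fold higher. Syce2, of the same element, began with 287 counts and rose least, by 1.18.

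Recombination genes were counted in smaller numbers. Spo11, the nuclease that makes the meiotic breaks, went from 8 to 89 counts, 4.35 (3.31 to 5.60), and Dmc1, the meiotic recombinase, from 136 to 250, 1.75 (1.44 to 2.06). Prdm9, which places the breaks, went from 71 to 185 counts, 2.25 (1.85 to 2.67). Meiob, Spata22 and Mei1, which act on the recombining strands or on break formation, each had 1 count at E11.5, against 47, 54 and 66 at E14.5. Their log2 fold changes were 6.43 (3.88 to 11.76), 6.63 (4.09 to 11.96) and 6.92 (4.39 to 12.24), with wide intervals. The mismatch repair genes Mlh3 and Msh5 were not called, at 0.41 and 0.60.

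The genes of the germ cell RNA machinery and of the piRNA pathway rose as well, 16 of 17 called higher with a median of 3.85. Among all kept genes the share was 11.7%. Mael, Nanos2, Piwil4 and Tex101, with fewer than 10 counts at E11.5, could not have been called lower. Mael, a factor of transposon silencing (chr1:166201385-166238744), went from 4 to 570 counts, 8.03 (6.66 to 9.91). Dazl, the RNA-binding protein that licenses germ cells, stood at 1.55, 145, 208 and 163 normalised CPM in order of age, and most of its rise was in place at E12.5. Ddx4, the germ cell helicase also called Vasa, went from 97 to 1176 counts, 4.47 (4.17 to 4.79). The piRNA factors Mov10l1, Asz1, Fkbp6 and Piwil2 rose by 6.06, 4.68, 3.85 and 3.58.

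Nanos2 and Piwil4, of the same list, were highest in the E14.5 library, as were Mael, Piwil2, Mov10l1 and others in normalised CPM. Dazl and Ddx4 were highest at E13.5. Nanos2, which blocks meiosis in XY germ cells, had 0, 0, 12 and 75 counts in order of age, and Piwil4, the nuclear Piwi protein, 3, 21, 41 and 129. Tex101, a surface protein of germ cells, went from 1 to 165 counts, 8.24 (5.74 to 13.55). Nanos3 was the list's uncalled member, at 0.39 (-0.09 to 0.86).

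Of these germ cell genes 5 are shown with the sequence around their start sites. All 5 rise and hold the motif CACGTG, so they do not stand for the genes of their lists that lack it. The windows run from 250 bases before to 50 bases after the annotated start and come from RefSeq on GRCm38.p6, the build that mm10 names. The motifs searched on both strands were CACGTG, the palindromic E-box that MAX-containing complexes bind, and GGCGGGA, a form of the E2F site. Capitals mark their matches, also where GGCGGGA lies on the other strand and reads TCCCGCC.

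Sycp3 (chr10:88459337-88459636, plus strand): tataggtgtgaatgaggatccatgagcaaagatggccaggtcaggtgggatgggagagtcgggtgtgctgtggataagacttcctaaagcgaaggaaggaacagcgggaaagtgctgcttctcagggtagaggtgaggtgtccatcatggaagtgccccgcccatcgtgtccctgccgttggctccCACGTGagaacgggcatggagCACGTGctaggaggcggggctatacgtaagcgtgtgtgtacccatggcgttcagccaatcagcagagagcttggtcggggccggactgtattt

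Sycp1 (chr3:102936051-102936350, minus strand): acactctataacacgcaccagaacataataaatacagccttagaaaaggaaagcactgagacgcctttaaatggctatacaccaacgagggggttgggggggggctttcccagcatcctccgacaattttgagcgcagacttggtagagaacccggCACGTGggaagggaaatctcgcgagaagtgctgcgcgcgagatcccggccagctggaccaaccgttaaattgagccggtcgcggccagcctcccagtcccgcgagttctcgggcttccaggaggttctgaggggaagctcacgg

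Hormad1 (chr3:95559427-95559726, plus strand): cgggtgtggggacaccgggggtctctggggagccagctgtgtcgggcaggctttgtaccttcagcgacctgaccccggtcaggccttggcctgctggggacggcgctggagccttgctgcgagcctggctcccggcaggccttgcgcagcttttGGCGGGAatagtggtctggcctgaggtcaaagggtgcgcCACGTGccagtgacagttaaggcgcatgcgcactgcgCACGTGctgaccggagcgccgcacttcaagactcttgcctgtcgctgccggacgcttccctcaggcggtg

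Mael (chr1:166238695-166238994, minus strand): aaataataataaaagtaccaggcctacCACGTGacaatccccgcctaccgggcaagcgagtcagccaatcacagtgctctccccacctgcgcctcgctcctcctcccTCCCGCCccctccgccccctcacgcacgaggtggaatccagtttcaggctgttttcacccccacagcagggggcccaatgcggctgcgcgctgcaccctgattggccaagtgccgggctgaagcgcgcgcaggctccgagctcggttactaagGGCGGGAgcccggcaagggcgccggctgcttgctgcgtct

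Ddx4 (chr13:112652261-112652560, minus strand): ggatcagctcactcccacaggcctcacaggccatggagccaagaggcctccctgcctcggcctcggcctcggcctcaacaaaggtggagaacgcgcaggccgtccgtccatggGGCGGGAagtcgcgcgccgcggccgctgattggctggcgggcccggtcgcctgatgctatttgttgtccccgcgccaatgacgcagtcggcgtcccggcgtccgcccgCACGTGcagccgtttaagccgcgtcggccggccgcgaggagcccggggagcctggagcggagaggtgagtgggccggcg

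Sycp3 carries CACGTG at 64 and 43 bases before the start, Hormad1 at 57 and 20, Sycp1 at 94, Ddx4 at 29 and Mael at 223. CACGTG was found for 6 of the 10 synaptonemal complex and axis genes with a window, for 8 of 15 genes of the RNA-binding and piRNA list and for 2 of 17 recombination genes. It was found for 1445 of the 13090 kept genes with a window, for 10.3% of those called higher and for 7.35% of those called lower. GGCGGGA was found for 7 of 17 recombination genes and 3 of 10 synaptonemal complex and axis genes, against 22.1% of the kept genes. Neither motif overlapped the other in these windows. None of the 7 Leydig cell and steroidogenesis genes with a window held CACGTG. A match is a description of the letters and was not tested further, and the motifs were chosen after the lists' values were known.

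Most pluripotency and specification genes of the germ line were higher at E14.5 than at E11.5 too, but their summed level had passed a peak. Of 15 kept, 10 were called higher, against 11.7% of all kept genes, with a median of 1.13 that turned negative in the ratio of deposited TPM. Their summed normalised CPM were 122, 474, 410.4 and 274 in order of age. Pou5f1, also called Oct4, stood at 4.03, 33.8, 29.5 and 22.9 and Nanog at 2.42, 15.2, 10.5 and 4.94. Dppa3 went from 106 to 641 counts and Dppa4 from 59 to 476, 3.47 (3.17 to 3.78) and 3.88 (3.49 to 4.30). Dppa4 was highest at E14.5, with 1.72, 15.7, 12.4 and 25.3 normalised CPM in order of age. Tfap2c, which specifies primordial germ cells, had 101, 470, 499 and 47 counts in order of age and ended at -0.23 (-0.76 to 0.28) against E11.5. Of the oocyte list, 5 of 11 genes passed the filter, and the called ones were Sohlh1, Sohlh2, Taf4b and Figla. Sohlh2 went from 44 to 244 counts and Taf4b from 298 to 618. Figla, with 0 counts in the E11.5 library against 11 in the E14.5 one, and Sohlh1, with 6 against 12, passed the filter only at E14.5. The zona pellucida genes Zp1, Zp2 and Zp3 had at most 4 counts in either library.

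**Figure D3:**
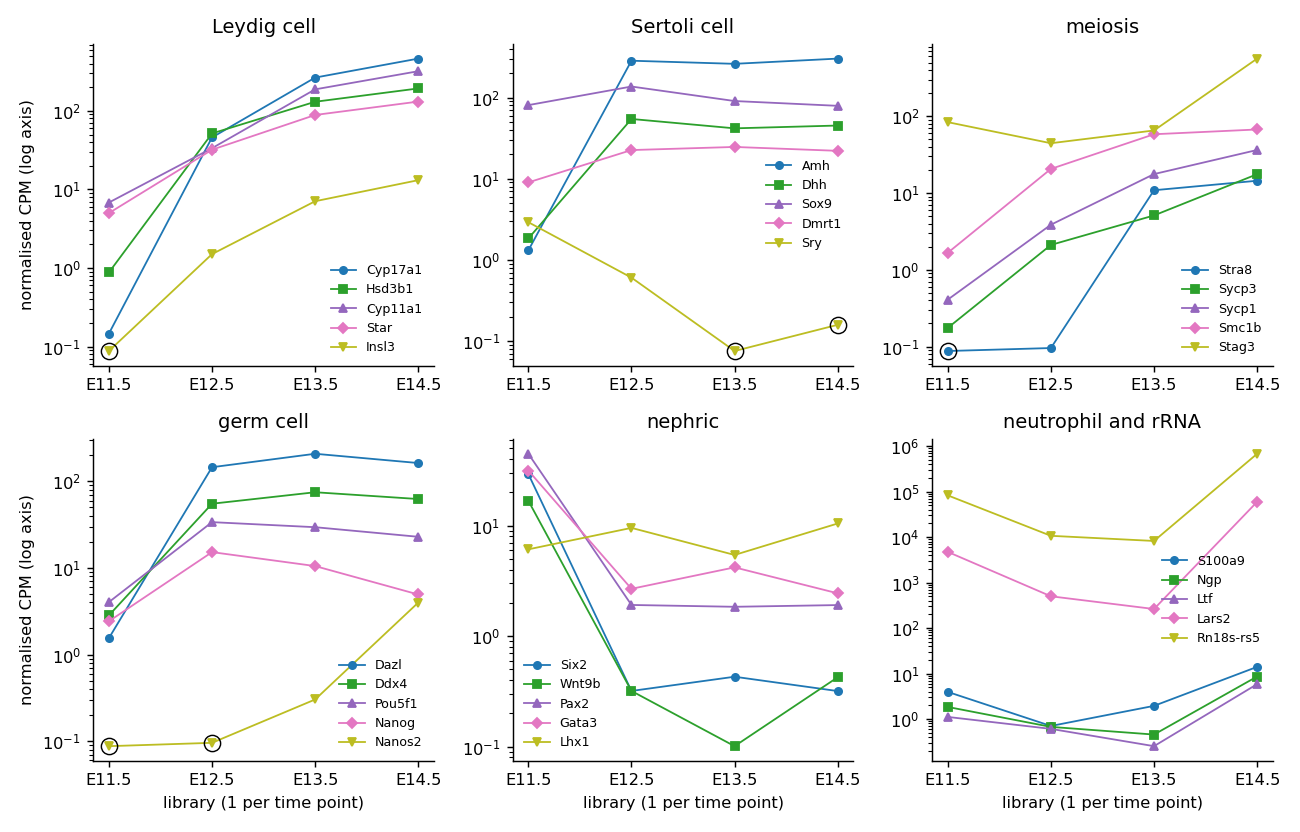
Normalised CPM (log axis) of 30 genes in the 4 libraries, 1 per time point, in 6 panels. Circles mark libraries with fewer than 3 counts, which are drawn at 3 counts. Leydig cell and meiotic genes are highest at E14.5, Amh and Dhh level off from E12.5, Six2, Wnt9b, Pax2 and Gata3 drop by E12.5, and S100a9, Ngp, Ltf, Lars2 and the 18S rRNA copy Rn18s-rs5 are lowest at E12.5 or E13.5.

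The nephric genes fell, and nearly all of the fall was in place at E12.5. Of 21 kept nephric and mesonephric genes 17 were called lower and 1 higher, with a median of -2.16. Over all kept genes 7.11% were called lower. Six2, which maintains nephron progenitors, went from 1004 to 6 counts, -6.51 (-7.96 to -5.39). Wnt9b, the duct signal that induces tubules, went from 575 to 8, -5.29 (-6.51 to -4.31). Pax2, the paired-box gene of the nephric duct, stood at 44.7, 1.92, 1.84 and 1.91 normalised CPM in order of age, and Gata3 at 31.5, 2.68, 4.19 and 2.44. The receptor genes Ret and Gfra1, which read the growth factor Gdnf, were called lower at -1.62 and -3.60, while Gdnf itself was called higher at 1.17 (0.98 to 1.37) but stood at -0.039 in the ratio of deposited TPM. Lhx1, a LIM-homeobox gene of the duct, was at 0.79 (0.50 to 1.08). The mesonephros was part of the E11.5 sample alone, and how much of these falls it accounts for was not tested.

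The Hox genes, which mark position along the body axis, fell in the same way. Of 37 kept Hox genes 30 were called lower and 0 higher, with a median of -2.47. Among all kept genes the shares were 7.11% and 11.7%. All 9 kept genes of the Hoxb cluster on chromosome 11 were called lower, with a median of -3.20, and 9 of 11 of the Hoxa cluster on chromosome 6, with a median of -2.60. In the Hoxc cluster on chromosome 15 and the Hoxd cluster on chromosome 2 the calls were 6 of 8 and 6 of 9, with medians of -1.26 and -1.23. Hoxa11 went from 446 to 4 counts, -5.93 (-7.81 to -4.56), and Hoxa10 from 1519 to 32, -4.70 (-5.25 to -4.19). Hoxd12 went from 243 to 4 counts and Hoxd13 from 172 to 0. Hoxd9 and Hoxd8, of the same cluster, were at 0.41 (0.29 to 0.53) and 0.67 (0.56 to 0.78). Whether reads of Hoxa11 and of its antisense transcript were kept apart depends on the strand setting of the counting, which is not given in the sources used here.

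Hoxc12 and Hoxa13 behaved differently from their neighbours. Hoxc12 had 914, 307, 352 and 952 counts in order of age, low in the libraries between and at 0.93 (0.80 to 1.06) between the ends. Hoxa13 had 74, 7, 14 and 32 and Hoxa4 200, 29, 37 and 67, and both were uncalled.

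Of 13 neuron and glia genes 7 were called lower and 1 higher, against 7.11% and 11.7% of all kept genes. Called lower were among others Dbh, which makes noradrenaline, from 315 to 2 counts and tyrosine hydroxylase, Th, from 93 to 11. The glial genes Sox10 and Erbb3 were not called, at 0.61 and -0.23. Of 10 gut and splanchnic genes 5 were called lower, among them Isl1 from 299 to 2 counts, Nkx2-3 from 112 to 1 and the long noncoding RNA Fendrr from 113 to 2. Foxa1, a pioneer factor of the endoderm, was the list's called rise, with 170, 26, 48 and 908 counts in order of age. It was thus lowest in the libraries between, as were the ribosomal RNA counts described below.

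Retinoic acid triggers meiosis in this organ, and the genes that make and bind it split. Of 11 kept genes 6 were called lower and 1 higher, against 7.11% lower and 11.7% higher of all kept genes. Aldh1a2, the main synthetic enzyme of the mesonephros, went from 7750 to 1065 counts, -1.99 (-2.08 to -1.90). The carrier genes Crabp1 and Crabp2 and the receptor gene Rarb, itself induced by the ligand, were called lower at -3.09, -2.87 and -2.81. Aldh1a1, another synthetic enzyme, rose from 424 to 6897 counts, 4.90 (4.75 to 5.04). Cyp26b1, which destroys retinoic acid in the testis, was at 0.60 (0.50 to 0.69), with 59.2, 144, 111 and 88.9 normalised CPM in order of age.

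Blood genes showed the switch from embryonic to adult globins. The embryonic genes Hbb-bh1, Hba-x and Hbb-y went from 4646 to 28, from 18508 to 833 and from 24191 to 2174 counts, log2 fold changes of -6.50, -3.60 and -2.60. The adult genes Hbb-bs and Hbb-bt went from 1399 to 20084 and from 1500 to 6429, and Hba-a1 and Hba-a2 from 9109 to 14149 and from 10615 to 17955, log2 fold changes of 4.72, 2.97, 1.51 and 1.63. The 3 embryonic genes held 67.7% of the counts of these 7 genes in the E11.5 library, and their share in the next 3 libraries was 44.5%, 17.5% and 4.92%. The adult genes of each pair are near-identical, so the split of reads within a pair is uncertain, and the summed share does not depend on it. The summed level of the 7 genes differed less, with 2044, 3587, 3482 and 3273 normalised CPM in order of age.

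**Figure D4:**
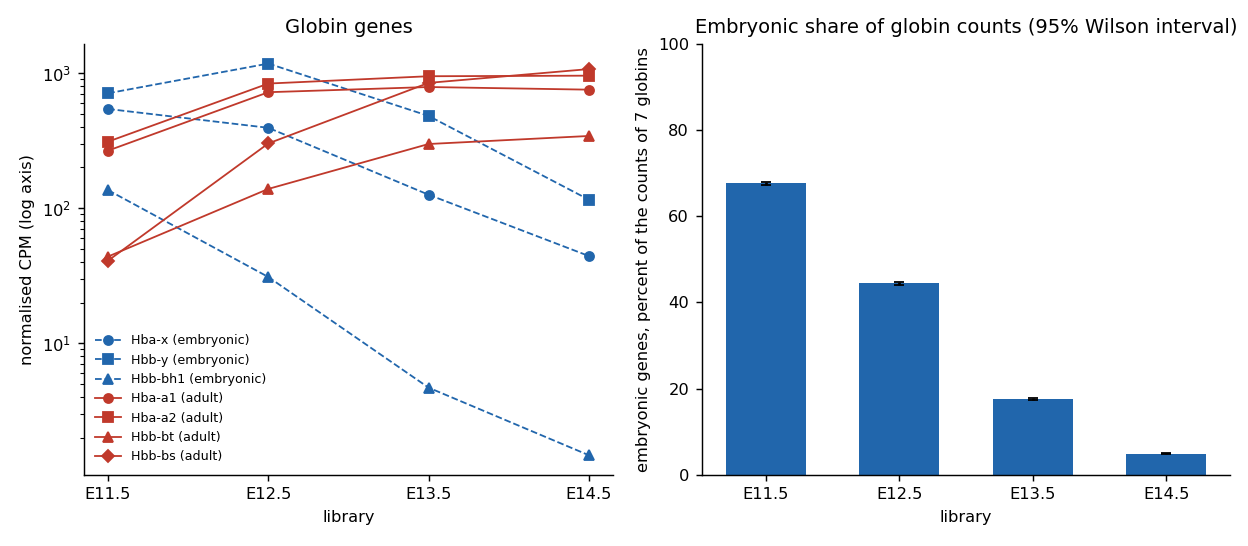
Left, normalised CPM (log axis) of 3 embryonic globin genes (blue, dashed) and 4 adult globin genes (red) in the 4 libraries. Right, the embryonic genes' percentage of the counts of all 7, from 67.7% at E11.5 to 4.92% at E14.5, with 95% Wilson intervals that are narrower than the lines.

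Among other erythroid genes 6 of 17 were called higher, against 11.7% of all kept genes, with a median of 0.81 that turned negative when scaled by total counts. Alas2, the first enzyme of haem synthesis in red cells, was at 1.24 (1.05 to 1.44) and Klf1, the factor that activates adult β-globin, at 1.47 (0.98 to 1.97). Of 18 endothelial genes 3 were called lower, against 7.11% of all kept genes, and 15 passed no rule, with Plvap from 2079 to 268 counts, -2.08 (-2.27 to -1.90), and with the pan-endothelial genes Cdh5 and Pecam1 at -0.18 and -0.23. Of 15 macrophage genes 3 were called lower, Mrc1, C1qb and C1qc, and 1, Cd14, higher on 10 counts in the E11.5 library against 16 in the E14.5 one.

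Neutrophil genes were called higher in 12 of 15 cases, against 11.7% of all kept genes. Their median was 1.87, but at few counts and with a dip between. S100a9 had 135, 22, 77 and 264 counts in order of age, Ngp 63, 21, 18 and 162 and Ltf 38, 19, 10 and 110. The list's summed normalised CPM were 27, 8.59, 12.8 and 64.1, which follows the order of the ribosomal RNA shares except that E12.5 and E13.5 change places. Between E13.5 and E11.5, 10 of 13 kept neutrophil genes were called lower and 0 higher, against 9.78% and 10.2% of all genes kept there. The part of the ribosomal RNA share in this result was not tested. The granule genes Mpo and Prtn3, which mark earlier myeloid cells, were not called, at -0.38 and -0.84. The stefin genes of the list are close paralogs, and their separate counts are uncertain.

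Extracellular matrix genes rose in part. Of 25 kept matrix genes 15 were called higher and 0 lower, with a median of 1.28. Among all kept genes 11.7% were called higher. The collagen VI genes Col6a1 and Col6a2 went from 1113 to 8041 and from 1325 to 8343 counts, 3.73 (3.64 to 3.82) and 3.53 (3.44 to 3.61). Eln, which encodes elastin, went from 234 to 2076, 4.02 (3.83 to 4.22), and the small proteoglycan genes Ogn and Dcn from 17 to 305 and from 971 to 3118. The basement membrane collagens Col4a1 and Col4a2 rose by 1.67 and 1.56, and the cartilage-type collagen gene Col9a3 had 126, 2356, 2309 and 782 counts in order of age. Fibronectin, Fn1, was at -0.10 (-0.13 to -0.06). Smooth muscle genes split, with Myh11, Mylk, Acta2 and Lmod1 called higher at 2.69, 2.22, 2.13 and 1.10 and Des and Synpo2 lower at -1.47 and -1.56. Of the 5 kept skeletal muscle genes Tnnt1 and Ttn were called higher at 1.13 and 1.23, and Actc1, an actin shared with the heart, went from 131 to 4 counts.

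Proliferation genes did not pass the rule in either direction. Of 23 genes of DNA replication and mitosis 0 were called higher and 0 lower, with log2 fold changes between -0.95 for Rrm2 and 0.19 for Bub1. No replicated test stands behind this count. Around the G1 restriction point Ccnd1 fell by 1.75, Cdkn1c by 1.20 and Ccne1 by 1.10, while the CDK inhibitor genes Cdkn2a, Cdkn2c and Cdkn1b were called higher at 5.15, 1.74 and 1.09. Cdkn2a went from 3 to 58 counts, and its interval ran from 3.53 to 7.46.

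Immediate early and heat shock genes respond to handling as well as to growth signals. They were called higher in 10 of 18 cases, against 11.7% of all kept genes. Their median of 1.07 turned negative in the ratio of deposited TPM. Fosb, Junb and Fos rose by 2.41, 2.03 and 1.72, and Egr1 by 1.30. Their summed normalised CPM were 1717, 3177, 4545 and 3552 in order of age, highest at E13.5. Of 15 housekeeping genes 1, Pgk1, was called lower at -1.03, against 7.11% of all kept genes. Gapdh was at -0.75, Actb at -0.39 and Tbp at -0.08.

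Cytosolic ribosomal protein genes stayed level with the median gene, with 2 of 84 called higher and a median of 0.13. The called genes were the retrogene-type paralogs Rpl10l and Rpl39l, which went from 8 to 75 and from 22 to 106 counts. Likewise Cox7b2, Cox6b2 and Cox7a1 were the 3 called genes of 80 of oxidative phosphorylation. Of 67 replication-dependent histone genes the variants Hist1h1t, Hist1h2ba and Hist1h2aa were called higher, at 1.85, 1.70 and 3.68, and Hist3h2ba lower at -1.94. Hist1h1t and Hist1h2ba encode histones known from the male germ line.

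Ribosomal RNA itself was the largest block of counts to change. Rn18s-rs5, an 18S ribosomal RNA copy on chromosome 17 (chr17:39846354-39848202), had 2833632, 334505, 325792 and 12816977 counts in the 4 libraries in order of age. Its log2 fold change from E11.5 to E14.5 was 3.05. The 5S copies n-R5s136, Rn5s10 and n-R5s124 on chromosome 8 were called higher as well, at 2.68, 3.54 and 4.36. The mitochondrial ribosomal RNAs Rnr1 and Rnr2 were at 0.79 and 0.83 and were not called. Ribosomal RNA had been removed with probes and RNase H before the libraries were made, so these counts are what was left after depletion and do not measure the RNA in the tissue.

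Several features not annotated as ribosomal RNA had the same profile through time. Lars2, the mitochondrial leucyl-tRNA synthetase gene (chr9:123366940-123462664), had 162002, 15652, 10378 and 1125000 counts in order of age, a log2 fold change of 3.67. The long noncoding RNA LOC102639045 (chr16:35966753-35983230) had 53224, 4573, 2711 and 294680, 3.34, and the precursor of miR-6236 (chr9:110281287-110281409) 71026, 9952, 9059 and 255341, 2.72. In total 79 of the 2277 genes called higher stood at least 2-fold below their E11.5 level at both E12.5 and E13.5. Of them 40 were protein coding, among them Purg, Xylb, Wnt7b, Amacr and Foxa1. Another 12 were long noncoding RNAs, 6 were C/D snoRNAs and 4 were the nuclear ribosomal RNAs. Purg had 68368, 18893, 17979 and 87673 counts in order of age and Xylb 3823, 591, 614 and 11570. The part of the ribosomal RNA share in this profile was not tested. Of the genes called lower, 2 stood at least 2-fold above their E11.5 level at both time points.

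Against E11.5, the guide RNAs of ribosomal RNA modification had medians above 0 at E14.5 and below 0 at E13.5, and scaling by total counts turned the E14.5 medians negative. Of 68 kept C/D snoRNAs, which guide ribose methylation of ribosomal RNA, 22 were called higher at E14.5 and 0 lower, with a median of 0.54. Of 44 H/ACA snoRNAs and scaRNAs, which guide pseudouridylation, 14 were called higher and 0 lower, with a median of 0.79. In the comparison of E13.5 with E11.5, 10.2% of 19936 kept genes were called higher and 9.78% lower. There 37 of 69 C/D snoRNAs were called lower and 1 higher. Of 44 H/ACA snoRNAs and scaRNAs only 5 were called lower and 0 higher, with a median of -0.54. That count of lower calls is near the share over all genes. For nuclear transfer RNAs the counts of calls were 21 higher and 8 lower of 275 at E14.5, where 11.7% and 7.11% of all kept genes were called, and 1 higher and 177 lower of 274 at E13.5. Both comparisons share the E11.5 library. The ribosomal RNA share was 9.06% at E11.5, 1.03% at E13.5 but 40.7% in the E14.5 library, and its part in these calls was not tested.

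Snord33 and Snord32a had 379, 170, 157 and 664 and 1132, 507, 546 and 1558 counts in order of age, both lowest in the libraries between. Snora47, which rose most among the H/ACA RNAs, had 162, 92, 105 and 277, 1.65 (1.36 to 1.94). Snord64 was an exception to the dip, with 21, 31, 57 and 39. The abundant structural RNAs stayed closer to level, Rn7s2, a signal recognition particle RNA, at 0.40, Rmrp at 0.46, Rpph1 at 0.54 and Rn7sk at 0.27, and none of the 13 kept structural RNAs was called. Among transfer RNAs n-Te20 went from 1375 to 182 counts and n-Ta36 from 2 to 20, and transfer RNA genes with near-identical copies share reads in ways that the counts do not show.

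**Figure D5:**
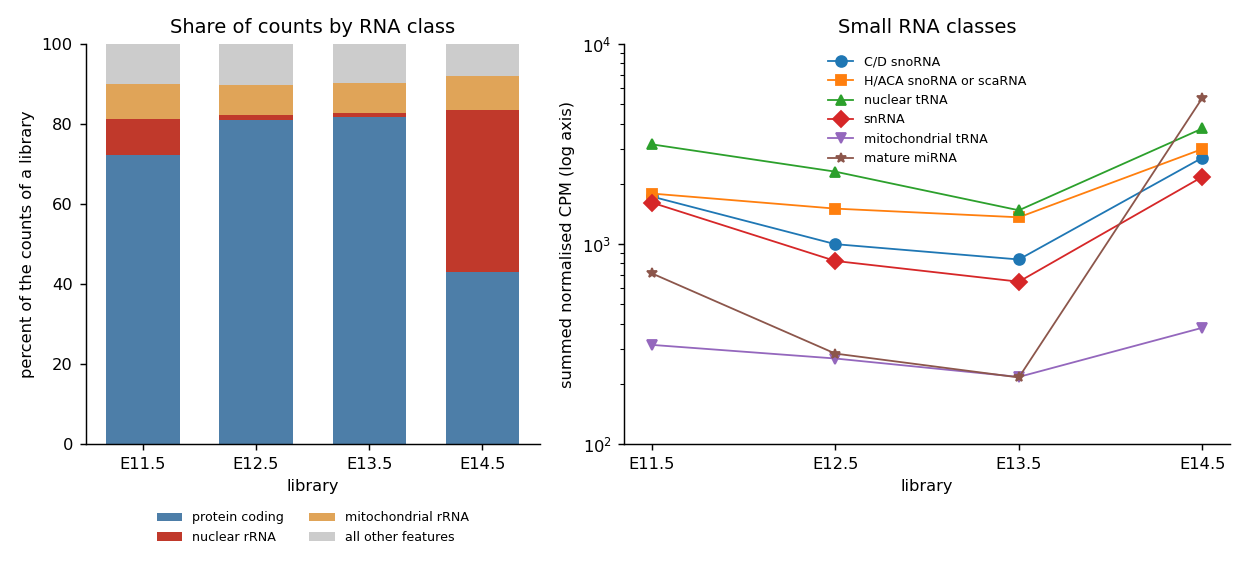
Left, the share of each library's counts in protein-coding genes, nuclear rRNA, mitochondrial rRNA and all other features, with nuclear rRNA at 9.06% at E11.5 and 40.7% at E14.5. Right, the summed normalised CPM (log axis) of 6 small RNA classes, which are lowest at E13.5 in all 6, and in which the mature miRNA line is raised at E14.5 by miR-6236.

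Of 62 mature miRNAs with enough counts 19 (30.6%) were called higher and 8 (12.9%) lower, against 11.7% and 7.11% of all kept genes. Between E13.5 and E11.5, 5 of 62 were called higher and 31 lower, with a median of -1.02. In that comparison 10.2% and 9.78% of all kept genes were called. How far the ribosomal RNA share bears on these calls was not tested. A mature miRNA lies within its precursor and reads counted for both are the same reads, and fragments of precursors cannot be told apart from mature molecules in these counts. Those that carry the pattern are shown with bases 2 to 8, the seed that pairs with targets, in capitals, from RefSeq on GRCm38.p6. The let-7 family, known for its rise as tissues differentiate, comes first, with its 5 kept members, which share a seed:

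let-7a-5p: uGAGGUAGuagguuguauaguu
let-7b-5p: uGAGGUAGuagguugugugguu
let-7c-5p: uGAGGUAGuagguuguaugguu
let-7e-5p: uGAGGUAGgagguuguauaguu
let-7f-5p: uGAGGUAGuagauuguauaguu

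Among them let-7c-5p had 33, 68, 99 and 98 counts in order of age, 2.44 (1.86 to 3.06), and let-7b-5p 0, 12, 36 and 25, at least 15.3-fold higher. let-7a-5p went from 20 to 35 counts and let-7f-5p from 8 to 17. let-7e-5p, with the most counts of the family at E11.5, had 64, 52, 82 and 55 in order of age and was not called, at 0.65 (0.11 to 1.20). The 5 differ from each other by few bases, all outside the seed, and reads could be split between them. The miR-125 pair, which is related to the worm gene lin-4, shares another seed:

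miR-125a-5p: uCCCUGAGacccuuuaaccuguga
miR-125b-5p: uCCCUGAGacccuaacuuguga

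miR-125b-5p had 48, 49, 35 and 102 counts in order of age, 1.96 (1.45 to 2.49), and miR-125a-5p 107, 84, 66 and 142, 1.28 (0.91 to 1.66). Both were lowest at E13.5, at -0.67 and -0.91 against E11.5. The next 4 stand alone by seed and are shown for their tissue or their place in the genome, a rise for the first pair and a fall for the second:

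miR-202-5p: uUCCUAUGcauauacuucuuu
miR-672-5p: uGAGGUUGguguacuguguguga
miR-196a-5p: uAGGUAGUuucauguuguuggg
miR-675-5p: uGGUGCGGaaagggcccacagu

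miR-202-5p, a miRNA of the gonads on chromosome 7, had 0, 24, 22 and 47 counts in order of age and was at least 28.7-fold higher at E14.5 than at E11.5. miR-672-5p, on the X chromosome, had 3, 31, 36 and 11, highest in the libraries between. miR-196a-5p is encoded at chr15:102973365-102973386, inside the Hoxc cluster, and on chromosome 11 beside the kept Hoxb genes. It went from 86 to 5 counts, -3.23 (-4.89 to -1.95), next to Hox genes that were mostly called lower. miR-675-5p lies in H19, and went from 54 to 12 counts, -1.30 (-2.34 to -0.38), where H19 itself was at -0.89 (-0.91 to -0.87).

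Another 2 miRNA entries carried most of the mature miRNA counts at E14.5, and are shown because they followed ribosomal RNA through the libraries:

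miR-6236: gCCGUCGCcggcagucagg
miR-6240: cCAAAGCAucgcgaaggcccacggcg

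miR-6236 had 15354, 2133, 2025 and 88495 counts in order of age and miR-6240 2137, 147, 125 and 7894. Their log2 fold changes were 3.40 and 2.76, beside 3.05 for Rn18s-rs5.

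Most called genes had made the larger part of their change by E12.5. Of the 2277 genes called higher, 1297 (57.0%) stood past the midpoint of their log2 change at E12.5, 462 more at E13.5 for the first time, and 518 at neither. Of the 1378 called lower, 1022 (74.2%) were past it at E12.5, 194 more at E13.5, and 162 at neither. Scaled by total counts, 666 of the lower genes were past it at E12.5, fewer than remained. These shares describe 4 libraries and carry no test. The E11.5 and E14.5 values that chose the genes also set the midpoints. The mesonephros was part of the E11.5 sample alone, so a crossing by E12.5 cannot be assigned to time or to dissection.

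The gene groups differed in when they crossed, and the same limits hold for each group. All 17 called Sertoli cell genes, all 30 called Hox genes, all 10 called pluripotency genes and 17 of 18 called nephric genes were past the midpoint at E12.5. Of the 21 called recombination genes 5 were past it at E12.5, 11 crossed at E13.5 and 5 later, and of the 6 called genes of meiotic entry and cohesin 1, 2 and 3. Leydig cell genes lay between, 9 of 12 at E12.5 and the other 3 at E13.5. Of 12 called neutrophil genes 11 were past it at neither, since they were at their lowest between.

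Set against E11.5 from the E13.5 library, which held little ribosomal RNA, the same lists gave the following values. The medians were 3.79 for Leydig cell genes, 2.67 for Sertoli cell genes, 3.74 for the synaptonemal complex and axis, 1.89 for recombination, -2.17 for nephric genes and -3.19 for Hox genes, beside 4.73, 3.03, 4.73, 2.92, -2.16 and -2.47 at E14.5. For pluripotency genes the E13.5 median was 2.12 beside 1.13. For matrix genes it was 0.62 beside 1.28. The neutrophil median was -1.41 beside 1.87, the C/D snoRNA median -1.01 beside 0.54, and the transfer RNA median -1.21 beside 0.25.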

How the data were processed

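Each file listed 40999 features with a count and a TPM value, a count scaled by transcript length and library. The authors made both from paired reads of rRNA-depleted, fragmented and poly(A)-tailed RNA with unique molecular identifiers, using cutadapt, STAR, UMI-tools and featureCounts on mm10, with versions and annotation release not given in the sources used here. The deposited count column was analysed as it stands. The deposited TPM column served as an alternative only.

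Genes with at least 10 counts in either library were kept. Effective library sizes came from TMM in edgeR 4.0.16 (R 4.3.3), over the pair for fold changes (TMM factors 1.36 at E11.5 and 0.736 at E14.5) and over all 4 libraries for normalised CPM. With 1 library a side no replicated test could be run. Calls needed a 2-fold difference and a 95% exact Clopper-Pearson interval of the later library's share of the 2 counts that excluded equality. The code was checked on simulated counts. A count of 0 was set to 3, equal to 0.0959 CPM of the E11.5 and 0.0952 CPM of the E14.5 total.

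The named genes are the 15 largest rises and falls that reached 100 counts in either library, rRNA genes, the 10 features with the most counts in each library, members of the gene lists, Lars2, LOC102639045, miR-6236 and miR-6240. A few list members are counted in their lists but not reported here by name. Members and lists were chosen with earlier results of these data known. Of 481 list symbols, 4 had no feature. Features were typed by name, GENCODE M21 and RefSeq. Alternatives were other scalings (DESeq2 1.42.0 median of ratios among them), filters, call rules, edgeR's exact test with a preset variation, and, added after seeing the data, the E13.5 library.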

Additional observations from a re-analysis of the deposited data

How the results depend on the processing

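Median of ratios, TMM over the 4 libraries, and totals without rRNA and the 10 most counted features of either library left both counts of calls within 1.5 times of 2277 higher and 1378 lower. Scaling by total counts moved the median gene by -0.886 and gave 1029 higher and 7496 lower calls. The ratio of deposited TPM moved it to -1.21 and gave 894 and 12753. A 4-fold rule gave 1032 and 548, a whole interval beyond 2-fold 1420 and 642, and edgeR's exact test with a preset coefficient of variation of 0.4 gave 398 and 150. Requiring 10 counts in both libraries gave 1612 higher and 859 lower calls. With E13.5 in place of E14.5 the counts were 2041 and 1949. Under total counts 666 of the lower calls were past their midpoint at E12.5. Of 278 called named genes, 59 were under 2-fold by total counts and none turned.

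By the TPM ratio 14 called genes turned negative: Cdkn1b -0.13, Col3a1 -0.17, Dnajb1 -0.17, Egr3 -0.12, Gdnf -0.039, Hspa1b -0.034, Lmod1 -0.12, Nanog -0.18, Prdm14 -0.046, Sall4 -0.16, Sox2 -0.085, Syce2 -0.037, Tnnt1 -0.085 and the mitochondrial tRNA TrnD -0.050. The medians of 16 lists changed sign by the TPM ratio, among them the pluripotency list at -0.085 and the immediate early and heat shock list at -0.14. With E13.5 the neutrophil median over the genes kept at E14.5 was -1.21. Total counts changed the sign of 14 medians, those of the pregranulosa, globin, erythroid, smooth muscle, Y-linked, structural RNA, ribosomal protein, oxidative phosphorylation, nuclear and mitochondrial tRNA, C/D snoRNA, H/ACA snoRNA, mature miRNA and snRNA lists, and the other 2 of the 16 are the lists just named.

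Without rRNA and the most counted features the shares at E11.5 and E14.5 were 94.2% and 93.0% for protein-coding genes, 0.453% and 0.534% for nuclear tRNA, 0.249% and 0.381% for C/D snoRNA and 1.14% and 1.04% for long noncoding RNA. Since no group had replicates, no library could be left out, and no paired analysis was possible because each time point had 1 library. Changes near 2-fold depend on the scaling, and 632 of the higher and 236 of the lower calls rest on fewer than 30 counts in either library.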

Other observations

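Genes on the X chromosome were called higher at E14.5 more often than genes on any autosome, 142 of 757 kept (18.8%) against 9.45% on chromosome 10 to 14.1% on chromosome 15. For protein-coding genes the X-linked count was 114 of 576 (19.8%). The share called lower on the X was 6.08%. These shares are a description of 2 libraries and carry no test. The broadly expressed Y-linked genes Kdm5d, Uty, Eif2s3y and Ddx3y lay between -0.19 and 0.28, and Xist, the noncoding RNA of X inactivation, was at -0.56 (-0.59 to -0.53). Usp9y went from 6 to 50 counts and Zfy1 from 13 to 22, and both were called higher.

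Of 22 kept imprinted genes 4 were called lower, against 7.11% of all kept genes, 1 higher and 17 in neither direction, with a median of -0.48. The growth factor gene Igf2 went from 97656 to 23954 counts, -1.15 (-1.18 to -1.13), Peg3 from 66029 to 15368, -1.23 (-1.26 to -1.21), and the CDK inhibitor gene Cdkn1c was at -1.20 (-1.26 to -1.14). H19 and Mest were at -0.89 and -0.93, just short of the 2-fold rule. Meg3 and Rian, noncoding RNAs of the Dlk1 domain, were at 0.13 and 0.07 and Dlk1 itself at 0.99. Phlda2 was the called rise, with 40, 165, 464 and 53 counts in order of age. Nnat had 7446, 2828, 2909 and 6051, lowest in the libraries between, and was not called.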
